A study of Mus musculus with 12 samples.

Results

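Cholesterol synthesis and sterol transport were examined through 33 genes, chosen by name for their place in the pathway, among the 56748 genes counted in mouse liver. They comprised 19 enzymes that build sterols from acetyl-CoA, 6 genes that sense sterols or control the transcription factor SREBP2, 2 esterifying enzymes, 4 efflux transporters and 2 proteins of lysosomal sterol egress. RNA-seq had been run on whole livers of mice fasted for 24 h, with 4 livers in each of 3 genotypes. By label, SKO livers were knocked out for Cpt2, the inner mitochondrial membrane carnitine palmitoyltransferase that long-chain fatty acid oxidation requires, and DKO livers for both Atf3, a stress-induced transcription factor, and Cpt2. Both deletions were liver-specific and were driven by Cre from the albumin promoter, which is active chiefly in hepatocytes and their precursors. According to the labels the WT mice were triple floxed, for Cpt1a, Cpt1b and Cpt2. The study's text instead names floxed Atf3 and Cpt2 for RT-qPCR controls, so whether the floxed alleles of WT and knockout mice matched is unclear. Age and sex were not in the labels.

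Hepatocytes make cholesterol from acetyl-CoA through mevalonate, farnesyl diphosphate, squalene and lanosterol. SREBP2, encoded by Srebf2, is carried by SCAP from the endoplasmic reticulum to the Golgi apparatus when sterols are scarce, is cleaved there, and then activates the genes of this pathway. INSIG1 and INSIG2 hold SCAP back when sterols are abundant. Insig1 is itself an SREBP target, while the liver transcript of Insig2 is known to rise in fasting and to be held down by insulin. Cholesterol leaves the hepatocyte to HDL through ABCA1 and to bile through the ABCG5 and ABCG8 pair, whose genes are targets of the oxysterol receptors LXR.

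The livers had totals of 14710304 to 20030055 counts (median 17908507). By these totals, before TMM scaling, a count of 0 allowed at most 0.150 to 0.204 CPM. CPM is the unit of all levels here (counts scaled by library size, with the TMM method over all 12 livers). Cpt2 was at 199 to 250 CPM in WT, 109 to 158 CPM in SKO and 99.9 to 125 CPM in DKO livers. Atf3 was at 1.11 to 2.14 CPM in WT and 14.5 to 54.0 CPM in SKO livers, and the 4 DKO livers had 7.91, 10.8, 13.5 and 0.266 CPM. DKO replicates 1 to 3 were thus above every WT liver and below every SKO liver in Atf3, and replicate 4 was below every WT liver. Counts of whole genes include any reads from outside the deleted part, so the Cpt2 and Atf3 levels do not check the deletions, and directions drawn from DKO livers rest on their labels. The last of these DKO livers, replicate 4, and SKO replicate 3 stood apart from the rest by their Xist counts of 20855 and 18063 with 0 and 2 counts over 4 Y-linked genes, whereas the other 10 livers had at most 19 Xist counts and 2741 to 4294 Y-linked counts. The labels do not give sex, and the study's text describes male mice for this experiment. Results of DKO livers are therefore given with and without replicate 4, and those of SKO livers without replicate 3 where that changed a call.

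Promoters are shown for 5 members: Insig1 and Insig2, which moved in opposite directions, Msmo1 and Sc5d, the enzymes with the largest fall and with the smallest p-value in SKO livers, and Hmgcs1, the member whose promoter held a sterol regulatory element core. Each line gives the 250 bases before a transcription start, read 5′ to 3′ on the gene's strand from RefSeq, build GRCm38.p6. Capitals mark CCAAT boxes (CCAAT, or ATTGG where the box lies on the other strand), the palindromic E-box CACGTG and the element core TCACNCCAC. The positions were chr5:28071162-28071411 on the plus strand for Insig1, chr1:121332590-121332839 on the minus strand for the first of 3 starts of Insig2, chr8:64733579-64733828 on the minus strand for Msmo1, chr9:42264301-42264550 on the minus strand for Sc5d and chr13:119690101-119690350 on the plus strand for Hmgcs1.
Insig1: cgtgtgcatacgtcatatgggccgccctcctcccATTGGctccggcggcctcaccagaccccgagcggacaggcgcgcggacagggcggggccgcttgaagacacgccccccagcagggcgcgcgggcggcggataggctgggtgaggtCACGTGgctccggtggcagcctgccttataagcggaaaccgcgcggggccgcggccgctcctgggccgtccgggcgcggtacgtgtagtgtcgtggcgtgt
Insig2: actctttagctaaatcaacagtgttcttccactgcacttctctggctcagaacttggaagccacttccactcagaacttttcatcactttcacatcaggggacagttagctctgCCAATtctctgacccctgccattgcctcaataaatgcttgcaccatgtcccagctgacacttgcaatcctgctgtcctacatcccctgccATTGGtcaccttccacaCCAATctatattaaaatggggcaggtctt
Msmo1: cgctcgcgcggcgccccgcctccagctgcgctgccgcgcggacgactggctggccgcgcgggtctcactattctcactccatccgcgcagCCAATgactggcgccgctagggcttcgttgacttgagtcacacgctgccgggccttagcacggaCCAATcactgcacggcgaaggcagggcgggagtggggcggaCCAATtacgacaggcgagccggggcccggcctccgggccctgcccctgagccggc
Sc5d: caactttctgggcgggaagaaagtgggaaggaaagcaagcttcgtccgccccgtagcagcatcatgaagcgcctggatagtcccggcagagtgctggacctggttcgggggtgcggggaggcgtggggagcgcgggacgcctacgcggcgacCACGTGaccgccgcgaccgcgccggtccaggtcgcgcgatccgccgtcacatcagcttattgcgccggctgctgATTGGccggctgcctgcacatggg
Hmgcs1: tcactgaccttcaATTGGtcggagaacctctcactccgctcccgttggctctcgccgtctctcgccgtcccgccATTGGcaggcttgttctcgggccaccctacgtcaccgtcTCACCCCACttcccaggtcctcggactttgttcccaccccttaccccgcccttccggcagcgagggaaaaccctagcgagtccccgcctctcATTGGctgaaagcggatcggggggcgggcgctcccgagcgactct

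CCAAT boxes bind NF-Y, a factor known to act beside SREBP at sterol genes. A window from 250 bases before to 50 bases after a start was listed for 26 of the 33 members. A CCAAT box, searched on both strands, lay in the windows of 23 of these 26 members (88.5%) and of 15 of 16 enzymes (93.8%), against 41.1% of 27025 genes with a listed window. CACGTG lay in 6 of 26 member promoters (23.1%), those of Abca1, Dhcr7, Hsd17b7, Insig1, Sc5d and Scap, against 8.09% of all genes. The core TCACNCCAC was found in Hmgcs1 alone among the 26 (3.85%, against 1.44% of all genes), and the same core preceded by A in 0 of 26, against 0.270%. Each was searched on both strands. These matches describe letters in a short window, and binding was not measured.

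In SKO against WT livers, 9 of 19 enzymes of sterol synthesis, 3 of 6 genes of sterol sensing and 2 of 4 efflux transporters were lower, and Insig2 was higher. Of the 33 members, all of which were abundant enough to be tested, 14 were lower and 1 was higher at an adjusted p under 0.05 in edgeR's quasi-likelihood test, while 32.1% of the 14261 genes tested passed the same threshold, 15.3% as lower and 16.8% as higher. The median log2 fold change of the members was -0.60, beside 0.03 over all genes. The 15 were Acat2, Mvk, Idi1, Tm7sf2, Msmo1, Nsdhl, Ebp, Sc5d, Dhcr7, Insig1, Insig2, Srebf2, Stard4, Abcg5 and Abcg8. Livers of the 2 genotypes did not overlap in 13 members that were lower and in 1 that was higher, where 16.1% and 17.2% of all genes were so. Summed levels of 10 hepatocyte markers were also lower, at 48427 to 80045 CPM in SKO and 84896 to 104418 CPM in WT livers. Alb was the largest part of these sums, at 22524 to 44518 CPM in SKO and 51850 to 65151 CPM in WT livers. By the same test 6 of the 10 markers were lower, Alb among them. Apoa1, Hnf4a and Cps1 were not called, with log2 fold changes of 0.23, -0.07 and -0.03, nor was Tat (adjusted p = 0.181). The part of this shift in the members' values was not tested. One fit over all 12 livers called 5 of the 33 members, Tm7sf2, Ebp, Sc5d, Abcg5 and Abca1, which was a smaller share than the 26.4% of all genes it called. DESeq2 called 17 members and 34.1% of all genes. Without SKO replicate 3, 18 members were called, the additional ones being Hmgcs1, Mvd and Abca1, beside 32.6% of all genes. In whole liver, fewer cells of a type and less RNA per cell cannot be told apart.

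**Figure D1:**
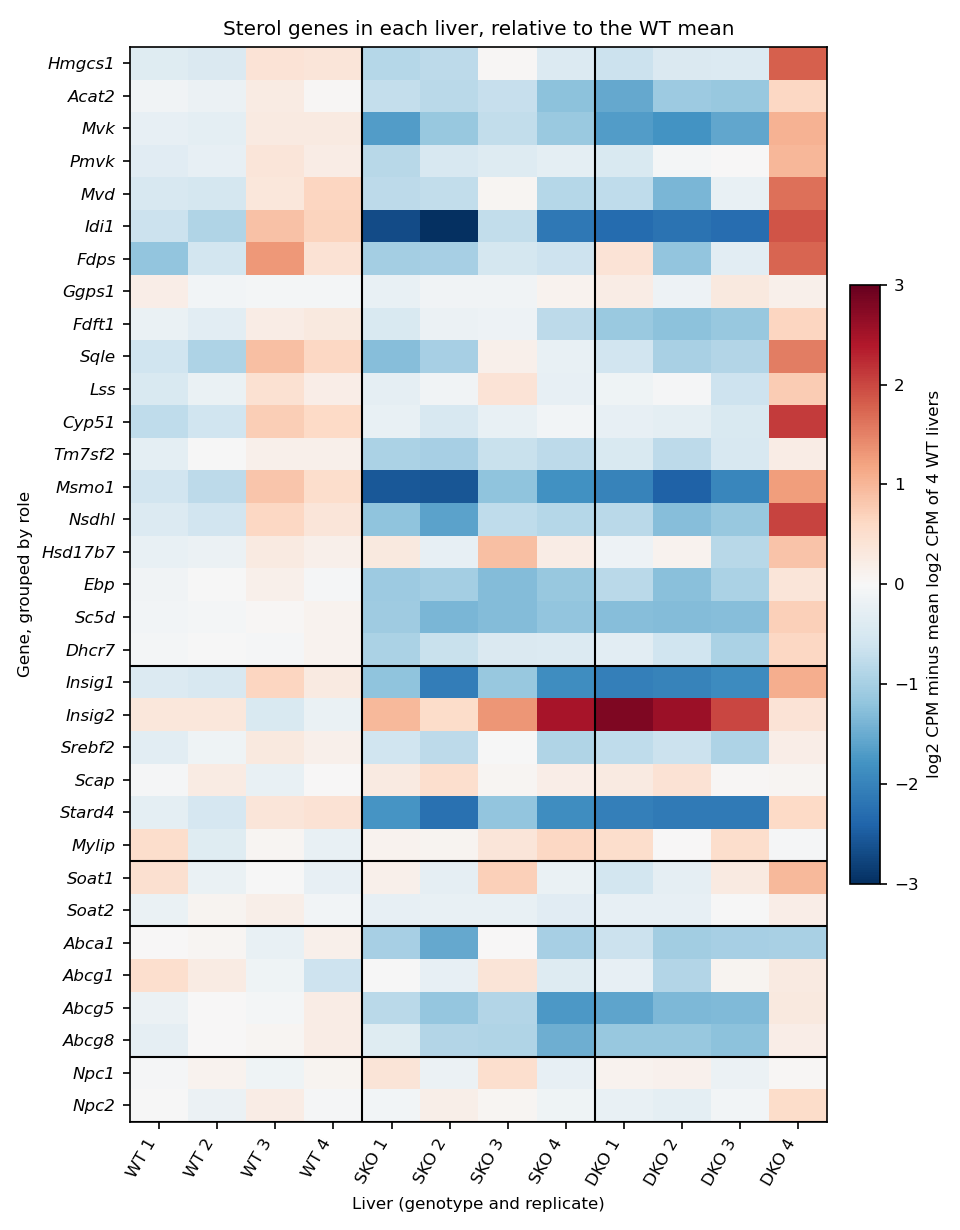
Each row is a gene and each column a liver, coloured by log2 CPM minus the mean log2 CPM of the 4 WT livers, with lines between genotypes and between groups of genes by role. Most enzymes of synthesis were below the WT mean in SKO livers and in DKO replicates 1 to 3, and above it in DKO replicate 4, while Insig2 was above the WT mean in every SKO and DKO liver.

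Among the 19 enzymes of synthesis, 9 were lower in SKO livers, 0 were higher and 18 had a negative log2 fold change, with a median of -0.68. Over all genes tested, 15.3% were lower, 16.8% were higher and 47.6% had a negative value. Sc5d, the desaturase that places a double bond in the sterol ring late in the pathway, had the smallest p-value. Sc5d was at 240.3, 243, 262 and 274 in WT, 122, 98.2, 104 and 112 in SKO and 105, 103, 104 and 419.7 in DKO livers, in CPM by replicate. SKO and WT livers did not overlap, and the level was 2.34-fold lower in SKO livers, with a log2 fold change of -1.23 (SE 0.12, adjusted p = 1.23e-05), where SE is the standard error from the fit. Ebp, the sterol isomerase that acts just before Sc5d, was at 138, 148, 166 and 145 in WT, 69.6, 73.6, 60.4 and 67.4 in SKO and 85.1, 61.9, 77.1 and 192 in DKO livers, in CPM. Its log2 fold change in SKO against WT livers was -1.14 (SE 0.12, adjusted p = 1.87e-05), or 2.20-fold lower, again without overlap of the groups. Dhcr7, the reductase of the last step to cholesterol by one branch, was at 39.2, 40.6, 39.4 and 43.6 in WT, 21.2, 25.7, 30.3 and 30.5 in SKO and 32.7, 27.1, 20.9 and 62.5 in DKO livers, in CPM. It was lower in every SKO liver than in any WT liver, by a log2 fold change of -0.60 (SE 0.13, adjusted p = 0.00436).

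The largest fold changes among the enzymes were those of Msmo1 and Idi1. Msmo1, the oxidase that starts removal of the C4 methyl groups from the sterol ring, was at 53.0, 45.8, 140.2 and 114 in WT, 13.5, 13.4, 34.5 and 22.4 in SKO and 19.7, 14.8, 20.4 and 187 in DKO livers, in CPM. All 4 SKO livers were below the lowest WT liver, although the WT livers themselves fell into a lower and a higher pair, and the log2 fold change was -2.08 (SE 0.48, adjusted p = 0.0140), or 4.22-fold. Idi1 isomerizes isopentenyl diphosphate, the building block of all isoprenoids, and was at 12.0, 10.0, 34.9 and 30.0 in WT, 2.92, 2.30, 11.2 and 4.27 in SKO and 3.81, 4.04, 3.86 and 69.7 in DKO livers, in CPM. SKO replicate 3 overlapped the WT livers for Idi1, and the log2 fold change was -2.06 (SE 0.64, adjusted p = 0.0430). Leaving out 1 liver ended the Idi1 call in 6 of 8 cases, and the fold change grew to -2.78 without SKO replicate 3. Counts of Idi1 are uncertain, since a processed copy, Idi1-ps2, held 26.7% as many counts over the 12 livers, and far more of them relative to Idi1 where Idi1 was low. Idi1-ps2 had 55 to 108 counts in WT, 26 to 94 in SKO livers and 48 to 141 in DKO replicates 1 to 3, beside 158 to 546, 45 to 216 and 66 to 79 counts of Idi1. Nsdhl, the dehydrogenase that follows Msmo1, was at 11.7, 10.3, 23.6 and 19.8 in WT, 6.69, 5.07, 9.04 and 8.59 in SKO and 8.83, 6.31, 7.01 and 62.7 in DKO livers, in CPM. It was 2.23-fold lower in SKO livers without overlap, at a log2 fold change of -1.16 (SE 0.28, adjusted p = 0.00788).

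Of the 9 enzymes up to squalene, 3 were lower in SKO livers, namely Acat2, Mvk and Idi1, and of the 10 after it 6 were, beside 15.3% of all genes. Acat2, the cytosolic thiolase that joins acetyl-CoA units, was at 32.8, 31.5, 42.2 and 36.1 in WT, 21.4, 20.2, 21.8 and 15.1 in SKO and 12.3, 16.6, 16.0 and 54.6 in DKO livers, in CPM. Its groups did not overlap, and the log2 fold change was -0.86 (SE 0.15, adjusted p = 0.000809). The neighbouring gene Acat3, a close copy of Acat2, ranged over 1904 to 2694 counts across the WT group and 147 to 416 across the SKO group, beside 497 to 657 and 269 to 419 for Acat2, and whether reads were shared between them was not tested. Mvk, which phosphorylates mevalonate, was at 10.8, 10.3, 15.4 and 15.2 in WT, 3.96, 5.78, 7.59 and 5.89 in SKO and 4.00, 3.68, 4.32 and 26.3 in DKO livers, in CPM. It was 2.22-fold lower in SKO livers, at a log2 fold change of -1.15 (SE 0.22, adjusted p = 0.00162). Tm7sf2, a sterol reductase of the late pathway, was at 78.8, 95.6, 108 and 107 in WT, 49.6, 48.5, 61.0 and 56.2 in SKO and 70.1, 55.9, 69.6 and 112 in DKO livers, in CPM. SKO livers were below every WT liver, by a log2 fold change of -0.85 (SE 0.13, adjusted p = 0.000381).

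The other 10 enzymes did not pass the threshold in SKO against WT livers. Pmvk, the kinase after Mvk, came closest and was at 12.3, 13.0, 19.8 and 18.1 in WT, 8.70, 11.2, 11.8 and 12.7 in SKO and 11.2, 14.9, 15.5 and 30.9 in DKO livers, in CPM. SKO replicate 4 overlapped the lower pair of WT livers, and the log2 fold change was -0.51 (SE 0.19, adjusted p = 0.0575). Fdps, which makes farnesyl diphosphate, was scarce, at 0.988, 1.52, 5.46 and 3.02 in WT, 1.10, 1.13, 1.56 and 1.46 in SKO and 2.94, 0.980, 1.78 and 7.45 in DKO livers, in CPM. With 17 to 30 counts per SKO liver and 19 to 84 per WT liver, its log2 fold change of -1.05 (SE 0.46, adjusted p = 0.103) was not resolved from the spread. Log2 fold changes of Hmgcs1, Mvd, Ggps1, Fdft1, Sqle, Lss and Cyp51 lay between -0.68 for Sqle and -0.07 for Lss, with adjusted p-values of 0.110 to 0.832. Without SKO replicate 3, Hmgcs1, the synthase before mevalonate, passed at a log2 fold change of -0.72 ± 0.23 (SE, adjusted p = 0.0333), and Mvd, which forms isopentenyl diphosphate, at -0.89 ± 0.31 (SE, adjusted p = 0.0476). Hsd17b7, a ketosteroid reductase of the same demethylation complex as Nsdhl, was the enzyme with a positive value, 0.34 (SE 0.22, adjusted p = 0.261). Per kb of gene length, Ebp, Sc5d and Tm7sf2 had the highest mean levels in WT livers, at 64.5, 52.4 and 22.1 CPM per kb, and Mvd, Ggps1 and Fdps the lowest, at 2.90, 2.57 and 0.653 CPM per kb.

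**Figure D2:**
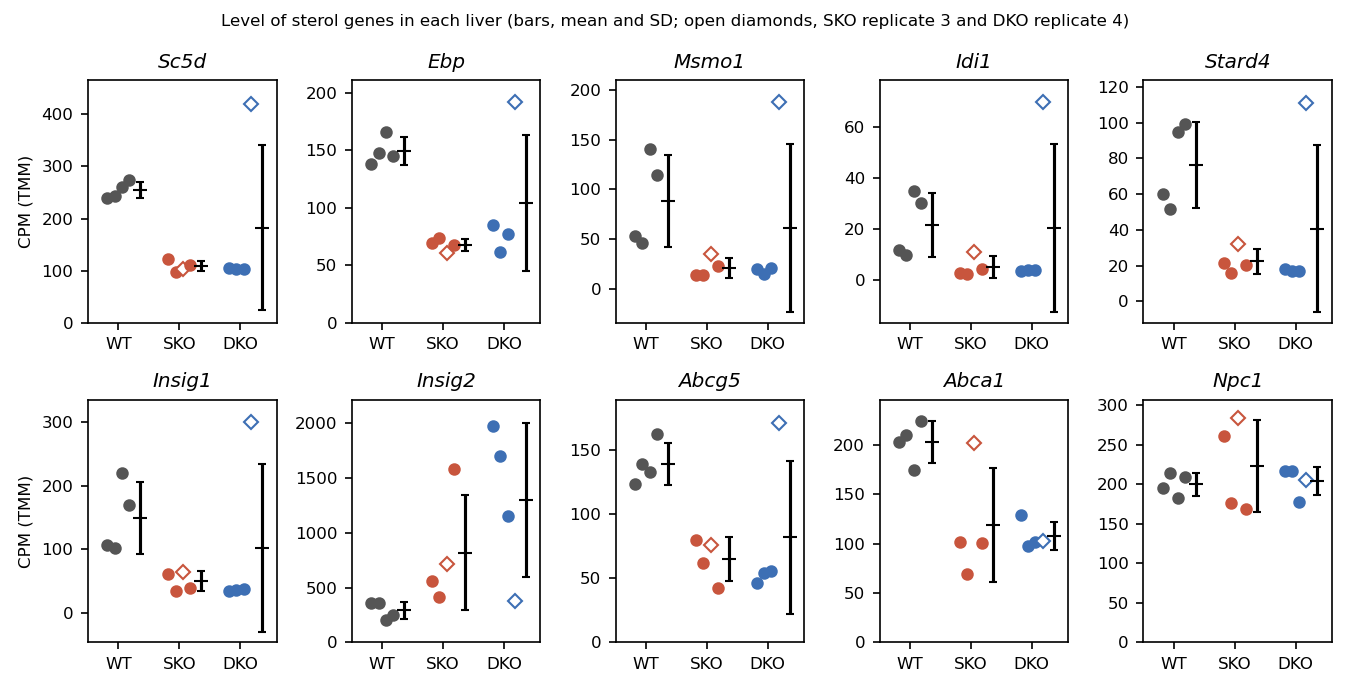
Each panel shows 1 gene, with CPM on the vertical axis from each of the 4 livers of a genotype as points, SKO replicate 3 and DKO replicate 4 as open diamonds, and bars for the mean and SD over 4 livers. For Sc5d, SKO livers and DKO replicates 1 to 3 lay between 98.2 and 122 CPM, below the WT livers, while DKO replicate 4 was at 419.7 CPM.

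WT livers also differed among themselves in these genes. Replicate 3 was the highest WT liver in 14 of the 19 enzymes and replicate 4 in 4, beside 28.8% and 22.7% of all genes, while replicates 1 and 2 were the lowest in 9 and 10. The ratio of the highest to the lowest WT liver was 3.49 for Idi1, 3.58 for Sqle, 3.06 for Msmo1 and 5.53 for the scarce Fdps, but 1.14 for Sc5d, 1.20 for Ebp and 1.11 for Dhcr7. Fdft1, Hmgcs1 and Cyp51 lay between these, at 1.52, 1.81 and 2.83. A per-liver mean over the 19 enzymes of log2 CPM minus the WT mean was -0.36, -0.36, 0.42 and 0.30 in WT livers, -0.97, -0.95, -0.40 and -0.72 in SKO livers and -0.77, -0.96, -0.85 and 1.10 in DKO livers. SKO replicate 3 was the highest SKO liver in 13 of the 19 enzymes and in 24.8% of all genes.

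**Figure D3:**
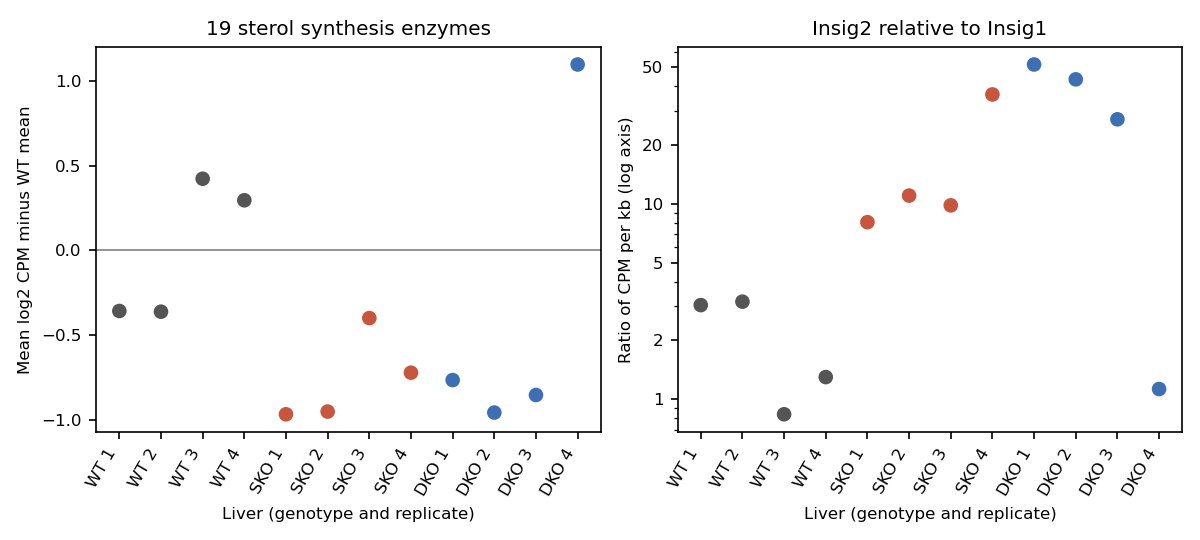
The left panel plots, for each liver, the mean over 19 enzymes of log2 CPM minus the WT mean, and the right panel the ratio of Insig2 to Insig1 in CPM per kb on a log axis. SKO livers and DKO replicates 1 to 3 had low enzyme means and ratios of 8.06 to 51.6, whereas DKO replicate 4 had the highest enzyme mean, 1.10, and a ratio of 1.13, within the WT range.

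In the SREBP2 machinery, 3 of 6 genes were lower and 1 was higher in SKO livers, beside 15.3% and 16.8% of all genes. Insig1, which retains SCAP in the endoplasmic reticulum, was at 106, 101, 219 and 169 in WT, 61.5, 33.7, 64.5 and 38.8 in SKO and 34.0, 34.9, 37.9 and 300.3 in DKO livers, in CPM. All SKO livers lay below the WT livers, 3.01-fold lower on average, at a log2 fold change of -1.59 (SE 0.30, adjusted p = 0.00320). Insig2, the other retention protein, was at 361, 358, 206 and 247 in WT, 556, 417, 711 and 1582 in SKO and 1970, 1699, 1151 and 381 in DKO livers, in CPM. It was higher in every SKO liver than in any WT liver, 2.78-fold in the fit, at a log2 fold change of 1.47 (SE 0.42, adjusted p = 0.0275). SKO replicate 4 stood above the other SKO livers, and the call was lost on leaving out any 1 of the 4 WT livers, with adjusted p-values of 0.0121 to 0.0797 over the 8 fits that each left out 1 liver. Per kb of gene length, the ratio of Insig2 to Insig1 was 3.03, 3.16, 0.839 and 1.30 in WT, 8.06, 11.0, 9.82 and 36.3 in SKO and 51.6, 43.3, 27.1 and 1.13 in DKO livers. Every SKO liver had a higher ratio than any WT liver, which follows from the separation of both genes and is no further result.

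Stard4, a carrier that moves cholesterol between membranes and an SREBP2 target, was at 60.1, 51.4, 94.8 and 99.2 in WT, 21.4, 15.6, 32.3 and 20.2 in SKO and 17.8, 16.8, 17.0 and 111 in DKO livers, in CPM. SKO livers were 3.42-fold lower without overlap, at a log2 fold change of -1.77 (SE 0.27, adjusted p = 0.000716). Srebf2 itself was at 60.4, 67.8, 91.7 and 83.2 in WT, 49.4, 43.6, 73.6 and 40.0 in SKO and 44.1, 48.0, 39.1 and 86.2 in DKO livers, in CPM. SKO replicate 3 overlapped the WT livers, and the log2 fold change of -0.55 (SE 0.20, adjusted p = 0.0477) was near the threshold and was lost in 6 of the 8 fits that left out 1 liver. Scap had a log2 fold change of 0.25 (SE 0.14, adjusted p = 0.194). Mylip, an LXR target that marks lipoprotein receptors for degradation, had one of 0.26 (SE 0.20, adjusted p = 0.362).

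Of the efflux transporters, Abcg5 and Abcg8, which pump sterols into bile as a heterodimer, were lower in SKO livers. Abcg5 was at 123, 139, 133 and 162 in WT, 79.6, 61.7, 75.6 and 42.1 in SKO and 46.5, 54.4, 55.2 and 171 in DKO livers, in CPM. The SKO livers did not reach the WT range, and the log2 fold change was -1.11 (SE 0.18, adjusted p = 0.000589), or 2.15-fold lower. Abcg8, its neighbour on the opposite strand, was at 142, 171, 177 and 197 in WT, 132, 92.6, 91.9 and 62.1 in SKO and 77.9, 77.8, 73.1 and 195 in DKO livers, in CPM. It was lower by a log2 fold change of -0.86 (SE 0.20, adjusted p = 0.00549), also without overlap of the groups. The annotated spans of Abcg5 and Abcg8 overlap, Abcg8 held 130% as many counts as Abcg5, and whether reads were shared between them was not tested. Abca1, which loads cholesterol onto apolipoprotein A1, was at 204, 211, 174 and 224 in WT, 101, 69.6, 202 and 101 in SKO and 129, 97.8, 102 and 103 in DKO livers, in CPM. SKO replicate 3 was within the WT range and the other SKO livers were below it, and the log2 fold change of -0.78 (SE 0.28, adjusted p = 0.0574) missed the threshold with all livers and was -1.16 (adjusted p = 0.000215) without that liver, where leaving out other livers gave adjusted p-values of up to 0.136. Abcg1, an exporter to HDL best known in macrophages, was at 3.46 to 7.49 CPM in WT and 4.04 to 6.91 CPM in SKO livers and was not called.

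Esterification and lysosomal egress did not pass the test in any of the 3 comparisons, with or without DKO replicate 4. Soat2, the sterol O-acyltransferase of hepatocytes, was at 42.8 to 55.5 CPM in WT and 38.6 to 42.2 CPM in SKO livers, which did not overlap, but its log2 fold change was only -0.26 (SE 0.12, adjusted p = 0.106). Soat1, the acyltransferase of most other cells, was at 3.52 to 5.82 CPM in WT and 3.48 to 6.86 CPM in SKO livers. Npc1 and Npc2, which pass cholesterol out of the lysosome, had log2 fold changes of 0.15 and -0.0031 in SKO against WT livers, with adjusted p-values of 0.549 and 0.988.

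**Figure D4:**
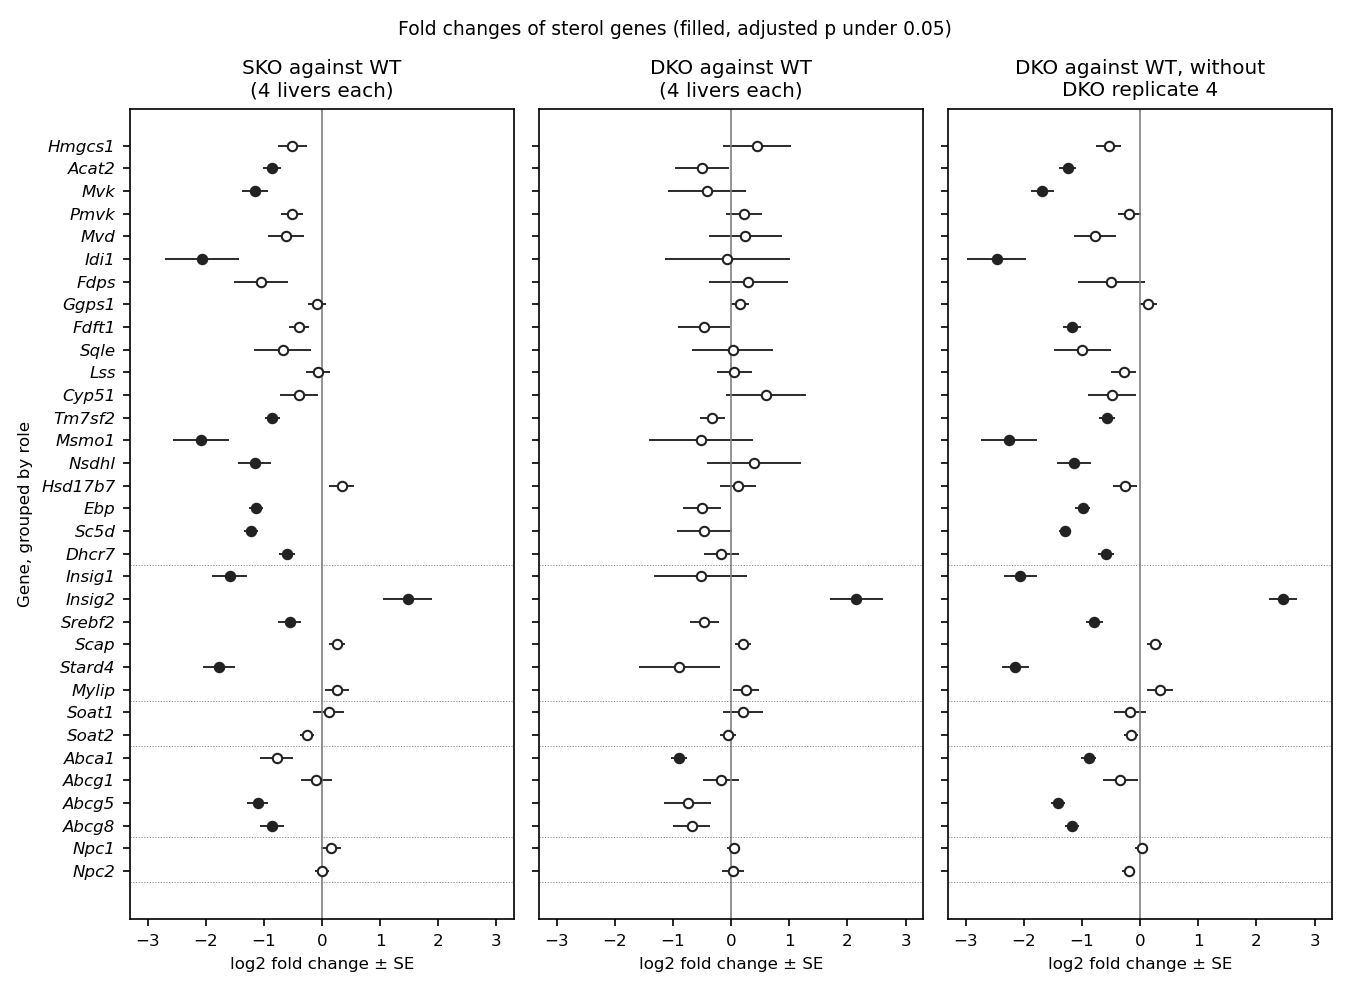
Points are log2 fold changes with SE for each of the 33 genes, filled at an adjusted p under 0.05 in edgeR, in SKO against WT livers, in DKO against WT livers and in the latter without DKO replicate 4. In the middle panel Insig2 and Abca1 are filled, and in the outer panels 15 and 17 genes are.

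In DKO against WT livers the outcome rested on replicate 4. With all 4 DKO livers, 1 member was higher (Insig2) and 1 lower (Abca1), while 10.5% of the 14448 genes tested were called, 6.10% as higher and 4.44% as lower. The members' median log2 fold change was -0.05, beside 0.03 over all genes, and 0 of 19 enzymes were called, as were 0 with DESeq2, which called 18.2% of all genes, and 0 at an unadjusted p under 0.05, which 29.3% of all genes passed. Without replicate 4, 17 members passed, 16 of them lower and Insig2 higher, while 35.9% of 14634 genes were called, 17.4% as lower and 18.5% as higher. The median of the members was then -0.59, beside 0.02 over all genes. Of the 19 enzymes 10 were lower, and the median over all 19 was -0.78. DKO replicates 1 to 3 did not overlap WT livers in 16 members that were lower and 1 that was higher, where 20.3% and 21.5% of all genes were so.

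DKO replicate 4 was the highest of all 12 livers in 23 of the 33 members and in 17 of the 19 enzymes, as it was in 10.5% of the 14920 genes tested over the 12 livers. It exceeded every other DKO liver in 18 of 19 enzymes and in 33.2% of those genes, and it was more than 2 times the mean of the other DKO livers in 17 enzymes and in 10.2% of the genes. The ratio was 17.8 for Idi1, 10.2 for Msmo1, 8.50 for Nsdhl, 8.43 for Insig1 and 6.45 for Stard4, and 1.01 for Ggps1, 1.01 for Npc1 and 0.881 for Scap. Insig2 went the other way, at 0.237 times the mean of the others. The enzymes of synthesis summed to 577 to 628 CPM in DKO replicates 1 to 3 and to 2152 CPM in replicate 4, beside 924 to 1351 CPM in WT and 589 to 805 CPM in SKO livers. Hepatocyte markers summed to 49923 to 60735 CPM in replicates 1 to 3 and to 107153 CPM in replicate 4. Of these sums, Alb was 24688 to 28454 CPM in replicates 1 to 3 and 74165 CPM in replicate 4. Apoa1 was lower in replicate 4 than in the other DKO livers, Hnf4a and Cps1 lay within their range, and the remaining hepatocyte markers were higher. Macrophage markers summed to 221 to 327 CPM in replicates 1 to 3 and 728 CPM in replicate 4, with 351 to 703 CPM in WT livers. Without replicate 4, 6 of 10 hepatocyte and 12 of 17 tested macrophage markers were lower than in WT and 3 macrophage markers were higher. Their part in the members' values was not tested.

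Without DKO replicate 4, 4 of the 9 enzymes up to squalene and 6 of the 10 after it were lower than in WT livers, beside 17.4% of all genes. Without replicate 4, Sc5d had a log2 fold change against WT of -1.29 (SE 0.10, adjusted p = 2.53e-06), Acat2 of -1.25 (SE 0.14, adjusted p = 3.68e-05) and Mvk of -1.68 (SE 0.20, adjusted p = 5.38e-05). Ebp was at -0.99 (SE 0.13, adjusted p = 0.000105), Msmo1 at -2.26 (SE 0.48, adjusted p = 0.0120) and Idi1 at -2.47 (SE 0.51, adjusted p = 0.00856) on the same scale. Smaller falls were seen for Tm7sf2, -0.57 (SE 0.13, adjusted p = 0.00601), and for Dhcr7, -0.59 (SE 0.14, adjusted p = 0.00575). Nsdhl changed sign with this liver, from 0.40 (SE 0.81, adjusted p = 0.786) with it to -1.14 (SE 0.30, adjusted p = 0.0138) without it. Fdft1, the squalene synthase that commits farnesyl diphosphate to sterols, was called here but not in SKO livers. It was at 62.1 to 94.3 CPM in WT, 44.6 to 69.5 CPM in SKO, 32.8 to 35.7 CPM in DKO replicates 1 to 3 and 120.9 CPM in DKO replicate 4. Its log2 fold change against WT was -1.17 (SE 0.15, adjusted p = 9.58e-05) without replicate 4. Fdft1 overlaps Ctsb on the opposite strand, which held 641% as many counts, and the strand setting of the counting is not given in the sources used here.

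Of the 6 regulators, Insig1, Insig2, Srebf2 and Stard4 were called in DKO against WT livers without replicate 4, beside 35.9% of all genes. Scap and Mylip were not, and their levels in replicate 4, 137 and 15.3 CPM, stood beside 133 to 176 and 15.7 to 22.7 CPM in the other DKO livers. Insig2 was higher in DKO than in WT livers by a log2 fold change of 2.16 (SE 0.45, adjusted p = 0.0234) with all livers and 2.46 (SE 0.24, adjusted p = 4.47e-05) without replicate 4, whose 381 CPM was just above the highest WT liver. With all livers, its call was lost on leaving out any 1 of the other 7 livers. Insig1 and Stard4 had log2 fold changes of -2.06 (SE 0.28, adjusted p = 0.000659) and -2.14 (SE 0.24, adjusted p = 0.000120) without replicate 4, and of -0.52 and -0.89 with it. Srebf2 was at -0.79 (SE 0.14, adjusted p = 0.00114) without replicate 4 and -0.46 (SE 0.25, adjusted p = 0.254) with it.

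Abca1 was the called member in which DKO replicate 4 lay among the other DKO livers. All 4 lay between 97.8 and 129 CPM, with replicate 4 at 103 CPM, below the 174 to 224 CPM of the WT livers. The log2 fold change was -0.90 (SE 0.14, adjusted p = 0.00875) with all livers and -0.89 (SE 0.13, adjusted p = 0.000291) without replicate 4, and the call held on leaving out each of the 8 livers in turn. Abcg5 and Abcg8 differed in this respect, since replicate 4 was at 171 CPM for Abcg5, above every WT liver, and at 195 CPM for Abcg8, near the highest, and the other DKO livers at 46.5 to 55.2 and 73.1 to 77.9 CPM. Their log2 fold changes without replicate 4 were -1.41 (SE 0.12, adjusted p = 4.33e-06) and -1.17 (SE 0.12, adjusted p = 1.74e-05), and -0.75 (SE 0.41, adjusted p = 0.262) and -0.68 (SE 0.32, adjusted p = 0.192) with it.

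The comparison of DKO with SKO livers asks what deletion of Atf3 adds to deletion of Cpt2. No member was called in edgeR, where 0.0278% of the 14363 genes tested were. DESeq2 called none of the 25 members to which it gave an adjusted p, beside 0.675% of all genes, and gave none for Hmgcs1, Mvk, Idi1, Cyp51, Msmo1, Nsdhl, Insig1 and Stard4. At an unadjusted p under 0.05, 3 members were higher (Tm7sf2, Pmvk and Fdps) and 0 were lower, where 6.10% of all genes passed, 3.78% as higher and 2.32% as lower. The median log2 fold change of the members was 0.44, beside 0.01 over all genes, and it was -0.17 without DKO replicate 4, beside -0.0045 over all genes. The 4 smallest p-values belonged to Tm7sf2, with a log2 fold change of 0.55 (SE 0.22, adjusted p = 0.787), Pmvk, with 0.74 (SE 0.30, adjusted p = 0.793), Fdps, with 1.36 (SE 0.56, adjusted p = 0.793), and Ebp, with 0.65 (SE 0.33, adjusted p = 0.818). Without replicate 4 these values were 0.29, 0.33, 0.55 and 0.15. SKO and DKO livers overlapped in all 33 members, where 3.94% of all genes did not overlap.

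Without replicate 4, 0 members were again called, 0.137% of 14589 genes were, and 1 member, Fdft1, passed an unadjusted p under 0.05 (7.01% of all genes did), as lower in DKO livers by a log2 fold change of -0.78 (SE 0.18, adjusted p = 0.145). It was also the member whose groups then did not overlap, where 3.55% of all genes did so as lower. For Insig2 the difference was 0.98 (SE 0.45, adjusted p = 0.734), and for Abca1 -0.11 (SE 0.33, adjusted p = 0.988), on the log2 scale. With both livers that had Xist counts left out, 0 members were called and 27 of all genes were. The SE of the enzymes' log2 fold changes with all livers ran from 0.17 for Ggps1 to 1.23 for Idi1, and without replicate 4 from 0.15 for Sc5d to 0.51 for Idi1.

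Genes that act around the members were described from lists of 6 functions. Over these lists 27 of 62 tested genes passed in SKO against WT livers, 14 as higher and 13 as lower, beside 32.1% of all genes, 16.8% as higher and 15.3% as lower. In SREBP processing and control at the endoplasmic reticulum, 2 of 13 genes were higher and 1 lower in SKO than in WT livers, which was a smaller share than over all genes. Srebf1, the SREBP of fatty acid synthesis, had a log2 fold change of -1.22 (SE 0.19, adjusted p = 0.000510). Sec24d, a coat protein of the vesicles that carry SCAP, had one of 0.73 (SE 0.17, adjusted p = 0.00550), and Erlin1, which helps degrade regulated proteins of the endoplasmic reticulum, one of 0.40 (SE 0.13, adjusted p = 0.0326). Of 5 electron donors to sterol enzymes, Cyb5r3 and Cyb5b were lower, at -0.79 (SE 0.11, adjusted p = 0.000209) and -0.52 (SE 0.13, adjusted p = 0.00876), and Por, the P450 reductase that serves Sqle and Cyp51, was higher, at 0.56 (SE 0.20, adjusted p = 0.0485).

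Among 8 tested genes of LXR signaling and oxysterols, 3 were higher and 4 lower in SKO livers. Cyp27a1, which makes an oxysterol ligand of LXR, had a log2 fold change of -0.74 (SE 0.12, adjusted p = 0.000582). Lpcat3, a phospholipid-remodeling target of LXR, was higher, at 0.67 (SE 0.12, adjusted p = 0.000820), as was the receptor partner Rxrb, at 0.95 (SE 0.19, adjusted p = 0.00241). Of 17 sterol transfer proteins, 3 were higher and 4 lower, with Osbpl3 at 3.82 (SE 0.25, adjusted p = 1.06e-06), Gramd1c at -1.58 (SE 0.21, adjusted p = 0.000175) and Osbpl5 at -1.36 (SE 0.29, adjusted p = 0.00314). In the hydrolysis of sterol esters, which frees stored cholesterol, 2 of 6 genes were higher and 2 lower. Nceh1, a neutral ester hydrolase, had a log2 fold change of 1.71 (SE 0.15, adjusted p = 5.09e-06) and Lipa, the lysosomal acid lipase, one of 1.12 (SE 0.13, adjusted p = 3.23e-05), while Ces3a was lower, at -1.25 (SE 0.20, adjusted p = 0.000544). Of 13 genes of the isoprenoid branch, 3 were higher and 0 lower, beside the same 16.8% and 15.3% of all genes, namely the prenyltransferase subunits Rabggtb, at 0.97 (SE 0.15, adjusted p = 0.000287), and Fnta, at 0.35 (SE 0.11, adjusted p = 0.0288), and the protease Rce1, at 0.49 (SE 0.17, adjusted p = 0.0438). In DKO against WT livers, 13 of 60 tested genes of these lists passed with all livers, beside 10.5% of all genes, and 26 of 62 without DKO replicate 4, beside 35.9% of all genes, and in DKO against SKO livers 0 passed in either case.

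Markers of other cells moved as follows in SKO against WT livers. Of 16 tested macrophage markers 3 were higher (Cd68, Cd14 and Gpnmb), of 10 stellate cell markers 1 was higher, and of 9 endothelial markers 0 were called. In this comparison 16.8% of all genes were higher and 15.3% lower. The macrophage markers summed to 350.2 to 819 CPM in SKO livers, the stellate cell markers to 219 to 266 CPM in WT and 304 to 405 CPM in SKO livers, and the endothelial markers to 204 to 447 and 273 to 331 CPM. Of 4 tested cholangiocyte markers 2 were lower, with a summed level of 28.0 to 33.3 CPM in WT and 7.63 to 14.6 CPM in SKO livers. Of 2 tested lymphocyte and neutrophil markers 0 were called. Of 2 tested adrenal or gut markers 1 was higher, Fabp2, at 194 to 483 CPM in SKO and 79.1 to 98.3 CPM in WT livers. In the same list Vil1 was at most 0.934 CPM in any liver, and Cyp11b1 had counts in SKO replicate 3 alone. No marker was at 0 in all livers, and the part of these cells in the members' values was not tested.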

How the data were processed

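Frozen livers were extracted with TRIzol and purified on RNeasy columns before library preparation and sequencing at Novogene. What the authors deposited is a table of raw, unnormalized read counts with 1 row per Ensembl gene. Their processing notes name HISAT2 and GRCm38 (mm10), but gene starts in the table equal those of a GRCm38 annotation for 1485 of 52073 genes, so no gene coordinates are given, and the counting program and its strand setting are not given in the sources used here. The deposited FPKM and tables of the authors' own fold changes and p-values were not used.

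Each pair of genotypes (8 livers) was fitted alone in edgeR 4.0.16 (R 4.3.3), by TMM normalization, filterByExpr and the robust quasi-likelihood test, two-sided, with Benjamini-Hochberg adjustment over all genes tested and a threshold of 0.05. The SE is the log2 fold change divided by the root of F. Levels per liver are CPM, with a prior count of 2 where log2 values were averaged. Alternatives were DESeq2 1.42.0, size factors of the RLE kind, no low-count filter, 1 fit over all 12 livers, the replicate number as a block and leaving out livers. On simulated counts, edgeR recovered 187, 188 and 181 of 200 genes changed 4-fold in the SKO/WT, DKO/WT and DKO/SKO designs, with 8, 7 and 13 false calls among 14009, 14188 and 14077 genes. All simulated livers of a group shared a single mean, so none stood apart as DKO replicate 4 did, and smaller changes were not simulated. The recovery therefore does not give the power for smaller changes or for groups with such a liver.

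Livers of a genotype were taken as separate mice as labelled, and none was a copy of another (chi-square over degrees of freedom at least 18.5). The members and lists were chosen with earlier results of these data known. Every member may be named, and of each other list the 3 genes with the smallest p in SKO against WT. The limits set by a count of 0 cover counting error only, while SEs include the spread between livers. Promoters came from RefSeq (GRCm38.p6).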

Additional observations from a re-analysis of the deposited data

Results flagged for a closer look

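For each member and genotype, the highest or lowest of the 4 livers was set against the other 3 by Dixon's gap test, and 16 of 99 groups had a liver that stood apart. Chance flags about 1 in 20 groups, or 4.95 of 99 here, and members are not independent of each other. In 14 of the 16 the liver was DKO replicate 4, always as the highest. Among early enzymes it had 296 CPM of Hmgcs1 (others 55.2 to 64.5), 54.6 CPM of Acat2 (12.3 to 16.6), 26.3 CPM of Mvk (3.68 to 4.32), 69.7 CPM of Idi1 (3.81 to 4.04) and 121 CPM of Fdft1 (32.8 to 35.7). Among later enzymes it had 63.9 CPM of Sqle (11.1 to 14.8), 198 CPM of Cyp51 (33.7 to 39.1), 187 CPM of Msmo1 (14.8 to 20.4), 62.7 CPM of Nsdhl (6.31 to 8.83) and 419.7 CPM of Sc5d (103 to 105). The same liver had 300.3 CPM of Insig1 (34.0 to 37.9), 111 CPM of Stard4 (16.8 to 17.8), 171 CPM of Abcg5 (46.5 to 55.2) and 195 CPM of Abcg8 (73.1 to 77.9). The remaining 2 were Mvd in SKO replicate 3, at 5.30 CPM (others 2.81 to 3.02), and Ggps1 in WT replicate 1, at 13.8 CPM (others 11.4 to 11.6).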

How the results depend on the processing

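Of 1320 member values under all alternatives, 38 lost a call, 28 gained one and 94 changed sign without being called in either fit. Nsdhl in DKO against WT livers was the called value that turned, from 0.40 to -1.14 without DKO replicate 4, and ran from -1.14 to 0.70 over the fits that left out 1 liver. In SKO against WT, 1 fit over 12 livers called 5 members and 3935 genes (26.4%), and leaving out 1 liver gave 12 to 18 members and 3618 to 4724 genes. Of the 15 calls, 12 held in each fit that left out 1 liver, and Idi1, Insig2 and Srebf2 did not. The fit over 12 livers lost 11 of the 15. In DKO against WT, members called were 1 without a low-count filter and 1 to 17 on leaving out 1 liver, where 17 came from leaving out DKO replicate 4. Genes called were 2635 with DESeq2, 706 with the replicate block and 236 to 5252 on leaving out 1 liver, lowest without WT replicate 2. In DKO against SKO, DESeq2 called 97 genes, no low-count filter 52, 1 fit over 12 livers 11, the replicate block 0 and the livers with Y-linked counts 27, and leaving out 1 liver gave 0 to 20 genes and 0 to 0 members. The cause of these differences was not tested.

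Same-numbered deviations of the livers correlated at -0.43 to 0.16 over 9790 genes, which gave no sign of pairing by replicate number. With 4 livers per genotype, such correlations cannot exclude pairing. With the replicate block, members called were 18, 2 and 0 in SKO against WT, DKO against WT and DKO against SKO, beside 29.4%, 4.89% and 0% of all genes. Fdps had 16 to 84 counts per liver outside DKO replicate 4, and 7 members overlap a gene with at least 10% as many counts: Abcg5, Abcg8, Cyp51, Fdft1, Ggps1, Npc1 and Tm7sf2.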
